A study of Homo sapiens with 6 samples.

Results

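The interferon-induced T cell chemokines CXCL9, CXCL10, CXCL11, CXCL16, CCL5 and CX3CL1 were examined in the human gastric adenocarcinoma cell line AGS after knockdown of C1GALT1. Members were the gene probes whose RefSeq accession on the array belongs to these 6 genes. Such probes were found for 5 genes, with 2 probes for CXCL10 and 1 each for CXCL9, CXCL11, CXCL16 and CCL5, among 22439 genes with a named probe. No probe was matched to CX3CL1, which was not analysed here. Both groups were AGS cells collected 48 h after transfection, the control group with the nontargeting siRNA (si-control) and the knockdown group with the siRNA si-C1GALT1-3. There were 3 si-control and 3 si-C1GALT1-3 samples, with 1 single-channel Agilent array per sample. The knockdown rests on 1 siRNA, so effects of the loss of C1GALT1 and other effects of this siRNA cannot be told apart. Nothing in the labels says that the replicates were separate cultures, so the p-values measure the spread between these samples, which may be technical.

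Chemokines are small secreted proteins that guide the movement of leukocytes through G protein-coupled receptors. CXCL9, CXCL10 and CXCL11 share the receptor CXCR3 on activated T cells and NK cells and are known as genes that interferon gamma, and to a varying degree interferon alpha and beta, switch on. CCL5 binds receptors that include CCR1 and CCR3, and its gene responds to NF-kB and to interferon regulatory factors. CXCL16 and CX3CL1 are made as membrane proteins that ADAM10 and ADAM17 can cut from the cell surface, and they bind CXCR6 and CX3CR1. C1GALT1 makes the core 1 structure of mucin-type O-glycans, and CXCL16 and CX3CL1 carry their chemokine domain on a mucin-like stalk.

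Promoter sequences are shown for CXCL9, CXCL10 and CXCL11, because these neighbouring genes answer to interferon and NF-kB through short motifs close to the start of transcription. The RefSeq table of GRCh38.p14 held 3 of the 6 genes. Each run below is the 250 bases before the start on the minus strand, written 5′ to 3′ in the direction of transcription. CXCL9 lies at chr4:76007510-76007759, CXCL10 at chr4:76023498-76023747 and CXCL11 at chr4:76036071-76036320. Capitals mark the interferon-stimulated response element (GAAA, any 2 bases, GAAA) in CXCL9 and CXCL10, the gamma-activated site TTCNNNGAA in CXCL11, and the kappa B site in CXCL10 and CXCL11.
CXCL9: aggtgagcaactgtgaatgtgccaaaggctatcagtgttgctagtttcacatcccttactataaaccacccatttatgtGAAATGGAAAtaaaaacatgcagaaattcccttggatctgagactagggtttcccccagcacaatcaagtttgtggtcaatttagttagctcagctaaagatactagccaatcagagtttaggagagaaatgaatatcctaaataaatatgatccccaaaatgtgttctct
CXCL10: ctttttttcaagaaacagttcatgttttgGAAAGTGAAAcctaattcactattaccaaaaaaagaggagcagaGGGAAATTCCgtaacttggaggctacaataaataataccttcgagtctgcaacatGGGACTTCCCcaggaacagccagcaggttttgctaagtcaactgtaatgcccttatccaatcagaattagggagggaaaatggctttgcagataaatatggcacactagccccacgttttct
CXCL11: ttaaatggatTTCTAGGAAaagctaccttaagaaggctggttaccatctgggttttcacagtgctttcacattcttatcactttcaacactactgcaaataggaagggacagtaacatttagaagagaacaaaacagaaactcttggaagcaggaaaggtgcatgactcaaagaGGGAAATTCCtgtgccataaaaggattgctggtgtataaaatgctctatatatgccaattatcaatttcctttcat

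The motifs were searched on both strands, and the motifs in capitals do not overlap each other. The response element spanned bases 221 to 212 before the start in CXCL10, as GAAAGTGAAA, and bases 171 to 162 in CXCL9, as GAAATGGAAA. It was present in 3.021% of 35116 promoters of the same length. The gamma-activated site spanned bases 240 to 232 in CXCL11, as TTCTAGGAA, and was present in 6.567% of promoters. The kappa B site began at bases 177 and 122 before the start in CXCL10, as GGGAAATTCC and GGGACTTCCC, and at base 76 in CXCL11, as GGGAAATTCC. It was present in 9.961% of promoters. These matches describe the letters in the window, and no binding was measured.

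Each array carried 60901 gene spots, and 66.2% to 72.7% of them were marked well above background, the scanner software's test of a spot against its surroundings, with none saturated. Position on the slide and treatment cannot be told apart, because si-control arrays were all in slide column 1 and knockdown arrays in column 2. On the array of si-control replicate 2, a rectangle holding 15.9% of gene spots was dim. Its median deviation from the mean of the other si-control arrays, before normalization, was -2.19 on the log2 scale, against -0.06 outside it. Spots in this rectangle were set to missing on that array, which leaves 2 si-control values for CXCL9, for 1 probe of CXCL10 and for CCL5. The levels given here are quantile-normalized log2 signals of a probe, and levels of different probes cannot be ranked. The threshold for a rise or a fall was a limma p under 0.01, without adjustment, together with a 2-fold difference. Beside it stands the p adjusted by Benjamini-Hochberg over the 58195 probes that could be tested.

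The probe of C1GALT1 read 12.22, 13.03 and 12.62 in si-control replicates 1, 2 and 3 and 11.76, 11.98 and 11.13 in si-C1GALT1-3 replicates 1, 2 and 3. All 3 knockdown arrays lay below all 3 control arrays. The difference was -1.0003 ± 0.31 on the log2 scale (SE, n = 3 per group, adjusted p = 0.265), and the probe did not reach p under 0.01.

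None of the 6 chemokine probes passed the threshold in the comparison of si-C1GALT1-3 with si-control. Over all probes, 2.64% passed, 1.65% as higher and 0.991% as lower. The fitted differences ran from -0.06 for CXCL16 to 1.05 for CCL5, with a positive sign for 5 probes. With 1 probe per gene, the median difference of the 5 genes was 0.34, beside 0.02 over all named genes. None of the 6 probes had an unadjusted p under 0.05, against 13.8% of all probes, and the smallest adjusted p among them was 0.445. At an adjusted p under 0.05, 0.0842% of all probes passed. The methods' t-test and the fit with the slide as a block also gave 0 of the 6 probes at an unadjusted p under 0.05, with smallest p-values of 0.176 and 0.0529. This count depended on the processing. For CXCL10 probe A_24_P303091, the unadjusted limma p was 0.0435 with 75th percentile normalization and 0.0234 without normalization. It was 0.0481 with the slide as a block and the dim rectangle kept. For CCL5 it was 0.0421 after normexp background correction and 0.0113 without knockdown replicate 3. None of these was under 0.01. Without si-control replicate 3, which leaves 1 control array for the masked probes, the differences were 1.11 for CXCL9 and 1.79 for A_24_P303091. Their calls are given with those probes below.

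**Figure D1:**
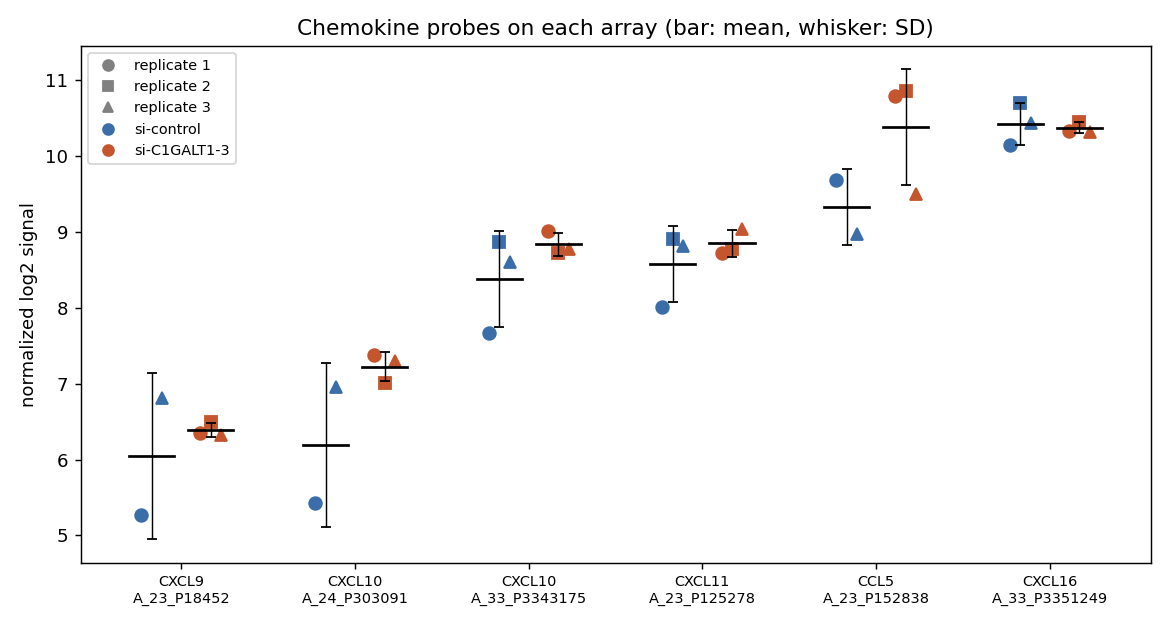
Quantile-normalized log2 signal of each chemokine probe on each array, with si-control and si-C1GALT1-3 side by side, 1 point per array, shaped by replicate number, a horizontal line at the group mean and whiskers of 1 SD. Spots in the dim rectangle of si-control replicate 2 are missing. Groups overlap for every probe except A_24_P303091 of CXCL10, and si-control replicate 1 is the lowest control for all probes except that of CCL5.

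CXCL9, a CXCR3 ligand, read 5.27 and 6.82 in si-control replicates 1 and 3 and 6.35, 6.49 and 6.32 in the 3 knockdown arrays. The knockdown values lay between the 2 control values, so the groups overlapped. The probe was well above background on 1 of 2 control arrays and on all 3 knockdown arrays. The difference was 0.34 ± 0.48 (SE, n = 2 and 3), with a 95% interval of -0.92 to 1.61 (adjusted p = 0.822). Without si-control replicate 1 the difference turned to -0.43, and without si-control replicate 3 it was 1.11, which passed the threshold with 1 control array left.

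CXCL10, the ligand with 2 probes, gave different sizes with each. Probe A_33_P3343175, outside the dim rectangle, read 7.67, 8.87 and 8.60 in si-control and 9.01, 8.72 and 8.78 in si-C1GALT1-3. Si-control replicate 1 lay under the other 5 arrays, and si-control replicate 2 lay above the lower knockdown values. The difference was 0.45 ± 0.33 (SE, n = 3 per group), with a 95% interval of -0.37 to 1.28 (adjusted p = 0.613), and it was 0.10 without si-control replicate 1 and 0.70 without si-control replicate 2.

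Probe A_24_P303091 of CXCL10 read 5.43 and 6.95 in si-control replicates 1 and 3 and 7.376, 7.004 and 7.295 in si-C1GALT1-3. The knockdown arrays lay above both control arrays, with knockdown replicate 2 just above si-control replicate 3. It was the only probe of the 6 without overlap, beside 11% of all probes without overlap and higher and 10.4% without overlap and lower. Most of those probes had 3 control values and this one had 2, and groups separate more easily with fewer values. The difference was 1.04 ± 0.49 (SE, n = 2 and 3), with a 95% interval of -0.24 to 2.31 (adjusted p = 0.445). It was 0.27 without si-control replicate 1 and 1.79 without si-control replicate 3, which passed with 1 control array left.

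CXCL11, which has the highest affinity for CXCR3 among its ligands, read 8.01, 8.91 and 8.82 in si-control and 8.72, 8.78 and 9.04 in si-C1GALT1-3. The groups overlapped, and si-control replicate 1 was again the lowest array after normalization. Its processed signal before normalization was 338.6, above 321.1 on si-control replicate 3. The difference was 0.27 ± 0.28 (SE, n = 3 per group), with a 95% interval of -0.42 to 0.96 (adjusted p = 0.725). Without si-control replicate 1 it was -0.02.

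CCL5 read 9.68 and 8.97 in si-control replicates 1 and 3 and 10.79, 10.85 and 9.50 in si-C1GALT1-3. Replicate 3 gave the lowest value in both groups, and knockdown replicate 3 lay under si-control replicate 1. The difference was 1.05 ± 0.52 (SE, n = 2 and 3), with a 95% interval of -0.30 to 2.41 (adjusted p = 0.461). The CCL5 spot on si-control replicate 2 lies inside the rectangle but was not dim. Its processed signal was 1061.5, well above background, beside 1038.4 and 360.2 on the other control arrays. With the rectangle kept, that array read 10.46 and the difference was 0.66. Keeping the rectangle also changed the normalization of that array. There the CXCL10 probe outside the rectangle went from 8.87 to 9.31, so the 2 CCL5 differences are not on the same scale. With the rectangle masked, the CCL5 difference was 0.69 without si-control replicate 3 and 1.48 without knockdown replicate 3, neither past the threshold. The sign was positive under all 17 alternatives tried.

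The spots of CXCL9 and of A_24_P303091 were dim on that array. Their processed signals of 8.7 and 9.6 were not well above background, while the other arrays gave 53.9 to 104.4 for CXCL9 and 59.7 to 194.6 for this CXCL10 probe. With the rectangle kept, the differences were 1.25 for CXCL9 and 1.75 for A_24_P303091.

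CXCL16, the membrane-bound ligand of CXCR6, read 10.15, 10.70 and 10.43 in si-control and 10.33, 10.45 and 10.32 in si-C1GALT1-3. All 3 knockdown values lay within the range of the controls. The difference was -0.06 ± 0.18 (SE, n = 3 per group), with a 95% interval of -0.50 to 0.39 (adjusted p = 0.946), so a 2-fold change in either direction lies outside this interval. Its sign was positive without normalization (0.07), after normexp background correction (0.02) and without si-control replicate 2 (0.08).

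**Figure D2:**
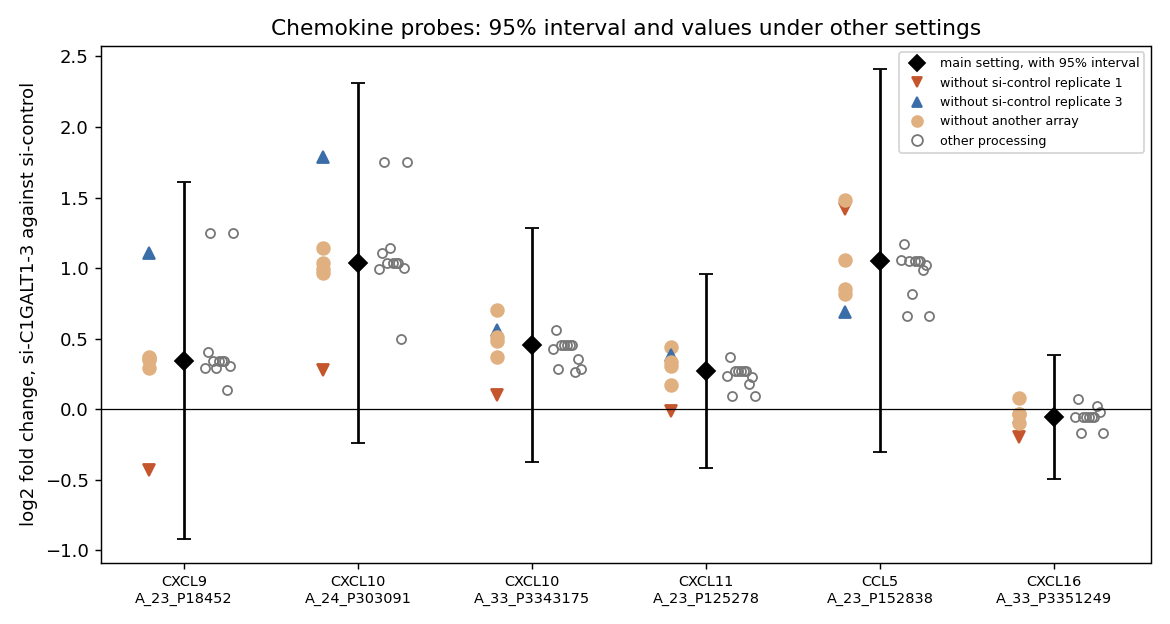
Difference of si-C1GALT1-3 minus si-control (log2) for each chemokine probe. Diamonds with bars give the value with its 95% interval, triangles the values without si-control replicate 1 or 3, filled circles the values without another array and open circles other processing. All 6 intervals include 0, and CXCL9 runs from -0.43 to 1.25 across alternatives.

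Arrays of the same replicate number shared a slide, so the difference was also taken within each slide. Within slide 1, si-C1GALT1-3 was higher for all 5 genes, with a median of 1.07 over 1 probe per gene. Within slide 2 it was higher for 0 of the 3 genes measured, with a median of -0.15, and within slide 3 for 3 of 5, with a median of 0.18. The corresponding medians over all named genes were 0.05, 0.02 and 0.0008. The signs within slide 2 depend on the normalization. Before it, the processed signals there were higher in the knockdown for all 3 genes. They were 499.3 against 454.2 for CXCL10, 517.7 against 467.6 for CXCL11 and 1651 against 1551.2 for CXCL16. The median processed signals of these arrays were 261.4 and 150.5, the latter with the dim rectangle included. For the CXCL10 probe outside the rectangle the slides gave 1.34, -0.15 and 0.18, and for CXCL11 0.72, -0.14 and 0.23. CCL5 gave 1.103 and 0.53 within slides 1 and 3 and, with the rectangle kept, 0.33 within slide 2. That slide 2 value comes from a normalization that also raised probes outside the rectangle on the control array, so it cannot be set directly beside the others. Without si-control replicate 1 the fitted differences of the 4 probes of CXCL9, CXCL10 and CXCL11 ran from -0.43 to 0.27, against 0.27 to 1.04 with it. This array had the highest median processed signal of the 6, 294.1, beside 150.5 to 262.1 on the others.

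**Figure D3:**
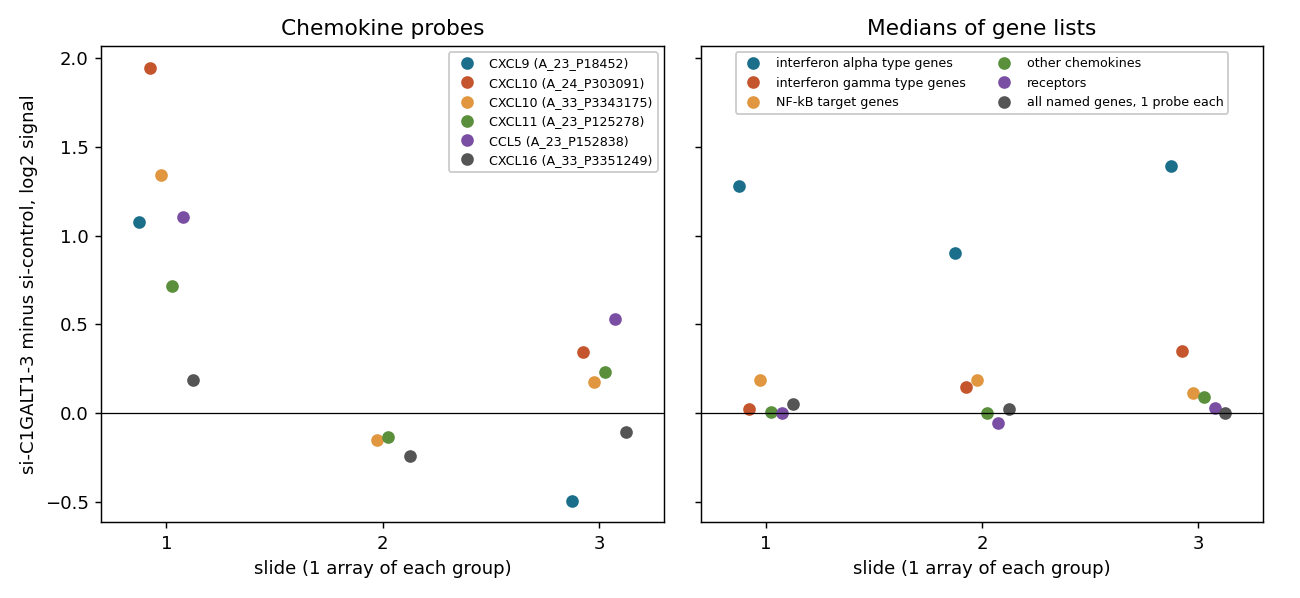
Difference of si-C1GALT1-3 minus si-control (log2 signal) within each slide. The left panel shows the chemokine probes and the right panel the medians of gene lists, 1 point per list and slide. The chemokines are highest within slide 1, while interferon alpha type genes have medians of 1.28, 0.90 and 1.39.

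The chemokine receptors bind these ligands on leukocytes, and 9 receptor genes had probes. One of them, CCR1, a receptor of CCL5, passed the threshold as higher and 0 as lower, beside 2.08% and 1.33% of all named genes. CCR1 read 5.35, 3.20 and 5.23 in si-control and 7.75, 7.11 and 7.78 in si-C1GALT1-3, with no overlap. It was well above background on 0 of 3 control and all 3 knockdown arrays. Its fold is therefore given as a bound on the means, 4.34-fold higher in the knockdown (adjusted p = 0.154). This bound sets the mean of the knockdown arrays against the lowest signal well above background on each control array, or the spot's own where that was higher. The call was lost with the methods' t-test, without knockdown replicate 1 and without knockdown replicate 3. CXCR3 differed by 0.08 ± 0.24 (SE, adjusted p = 0.94), CXCR6 by 0.76 ± 0.41 (SE, adjusted p = 0.486), and CX3CR1 was well above background on no array. The proteases ADAM10 and ADAM17 differed by 0.08 and -0.003, and DPP4, which trims the CXCR3 ligands, was well above background on no array. In a bulk sample, a change in the number of cells with a transcript and a change in the transcript per cell cannot be told apart.

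Of 10 cytokine genes that can switch on these chemokines, 2 rose and 0 fell, beside 2.08% and 1.33% of all named genes. IFNB1, which encodes interferon beta, read 6.94, 6.96 and 7.11 in si-control and 8.83, 8.09 and 8.55 in si-C1GALT1-3, a difference of 1.49 ± 0.22 (SE, adjusted p = 0.0961). IFNE, for interferon epsilon, rose by 1.34 ± 0.20 (SE, adjusted p = 0.0979), and lost the call with the rectangle kept and after normexp. Neither had overlap between groups, and both lost the call with the slide as a block and the rectangle kept. IFNL3 had the largest difference of the list, 1.55, and did not pass (adjusted p = 0.326) except with the slide as a block. IFNG, for interferon gamma, was well above background on no array, and IL1A was well above background on both measured control arrays and on 0 of 3 knockdown arrays, where its level is only a bound, at least 1.58-fold higher in si-control (adjusted p = 0.494).

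Of 25 genes for receptors, kinases and factors between these cytokines and the chemokine genes, 2 rose and 0 fell, and the median was 0.34. Over all named genes, 2.08% rose and 1.33% fell. TLR3, a sensor of double-stranded RNA, read 6.20, 5.98 and 6.23 in si-control and 7.97, 8.01 and 8.30 in si-C1GALT1-3. The rise was 1.95 ± 0.16 (SE, adjusted p = 0.0499). The call at p under 0.01 and 2-fold held under all 17 alternatives, but with the slide as a block no probe had an adjusted p under 0.05. IFNGR1, a chain of the interferon gamma receptor, rose by 1.11 ± 0.16 (SE, adjusted p = 0.0979), a call lost without knockdown replicate 3 and with the slide as a block and the rectangle kept. IRF1, a factor that acts on interferon-stimulated promoters, differed by 0.87 (adjusted p = 0.213), under 2-fold. JAK1 had the lowest difference, -0.59 (adjusted p = 0.188).

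The other genes that interferons switch on gave a different count. Of 30 genes of interferon alpha type with a probe, 17 rose and 0 fell, beside 2.08% and 1.33% of all named genes. Their median was 1.19, and 23 had no overlap between groups. Of all named genes, 14% were without overlap and higher and 11.2% without overlap and lower. OAS2, which makes an activator of RNase L, read 8.62, 9.35 and 8.82 in si-control and 11.63, 11.67 and 11.40 in si-C1GALT1-3, a rise of 2.63 ± 0.23 (SE, adjusted p = 0.0499). BST2, which tethers budding virus, read 10.11, 10.33 and 9.77 against 12.68, 12.65 and 12.28, a rise of 2.47 ± 0.21 (SE, adjusted p = 0.0499). IFI35 rose by 2.60, IFI44L by 2.34, XAF1 by 1.88, MX2 by 1.57, OAS1 by 1.54 and IFIT1 by 1.33. The others that passed were CMPK2 (1.56), IFI44 (1.63), IFIT3 (1.73), UBE2L6 (1.62), PARP14 (1.31), SAMD9 (1.31), RSAD2 (1.07), EPSTI1 (1.01) and TRIM22. TRIM22 was well above background on 0 of 3 control arrays, and its bound on the means was 2.38-fold higher in the knockdown (adjusted p = 0.091). IFIT2 was the lowest of the list at -0.13 (adjusted p = 0.927). The number that passed ran from 11 to 18 over the alternatives, and 5, 5, 8 and 11 of 17 alternatives kept RSAD2, EPSTI1, IFIT3 and SAMD9. TRIM22 lost the call after normexp, and TRIM22 and IFIT1 with the slide as a block and the rectangle kept. Within the 3 slides, 28 of 30, 24 of 27 and 30 of 30 of these genes were higher.

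CXCL9, CXCL10 and CXCL11 respond to interferon gamma and, to a varying degree, to interferon alpha and beta. Of 16 genes of interferon gamma type, 1 rose, 1 fell and the median was 0.09, beside 2.08% and 1.33% of all named genes that rose and fell. GBP1, a guanylate-binding protein, read 4.27, 5.93 and 4.41 in si-control and 8.74, 8.37 and 7.94 in si-C1GALT1-3, a difference of 3.48 ± 0.50 (SE, adjusted p = 0.094), with 1 of 3 control arrays well above background. CIITA, the activator of MHC class II genes, fell by 1.06 ± 0.15 (SE, n = 2 and 3, adjusted p = 0.116), and lost the call without normalization, with the rectangle kept, with the slide as a block and after normexp. Whether the chemokines differ from either list was not tested.

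Of 30 other chemokine genes with probes, 2 rose, 0 fell and the median was 0.10, beside 2.08% and 1.33% of all named genes that rose and fell. CXCL2, a neutrophil chemokine, read 13.40, 13.39 and 13.54 in si-control and 14.83, 14.63 and 14.32 in si-C1GALT1-3, a rise of 1.15 ± 0.17 (SE, adjusted p = 0.0979). CXCL1, of the same kind, rose by 1.098 ± 0.17 (SE, n = 2 and 3, adjusted p = 0.125). Neither passed without normalization between arrays, and CXCL1 also lost the call with the rectangle kept, with the slide as a block and without si-control replicate 1. CXCL3 differed by 0.89 (adjusted p = 0.144), under 2-fold, while CXCL8 was at -0.69 (adjusted p = 0.583) and CCL13 had the lowest value, -0.79 (adjusted p = 0.376). Among 15 NF-kB target genes, CXCL1 and CXCL2 were the 2 that rose and 0 fell, with BIRC3 lowest at -0.79 (adjusted p = 0.11, under 2-fold).

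With all 6 arrays, no marker of other cell types passed the threshold, beside 2.08% of all named genes as higher and 1.33% as lower. Leaving out si-control replicate 3 gave 1 myeloid gene called lower, and leaving out knockdown replicate 1 gave 1 fibroblast gene called lower. Of 9 T and NK cell genes, 0 rose and 0 fell, and KLRD1 and IL7R were well above background on no array. The summed normalized signal of the 8 genes measured on all arrays was 1613.7 to 1984.8 in si-control and 1354.3 to 1838 in si-C1GALT1-3. CD4 is not in this sum, because it was masked on si-control replicate 2. It read 15.97 and 15.17 in si-control replicates 1 and 3 and 15.50, 15.44 and 15.11 in si-C1GALT1-3, far above the summed genes. CD3G and CD8A, at 0.50 and -0.50, had the largest differences, and every array gave CD3E, CD3G, CD2, CD8A and NKG7 signals well above background. Of 5 myeloid genes with probes, 0 passed, and the sum was 351.7 to 475.7 against 457.2 to 552.3. CD163 was well above background on 0 of 3 control and all 3 knockdown arrays, and its bound on the means was 1.28-fold higher in the knockdown (adjusted p = 0.291). FCGR3A was well above background on 1 control array and on 0 knockdown arrays. Of 4 endothelial and 5 fibroblast genes, 0 passed, with VWF at -1.03 (adjusted p = 0.257) and PDGFRB at -0.81 (adjusted p = 0.207), and LUM was well above background on no array. The part of these signals in the chemokine values was not tested. The 6 epithelial genes EPCAM, KRT8, KRT18, KRT19, CLDN4 and CLDN7 were each well above background throughout, from 0.15 for EPCAM to -0.65 for CLDN7 in their differences. AGS is an epithelial line.

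Genes whose levels followed a chemokine most closely were ranked by Pearson's r over the arrays, among 19699 or 19700 probes well above background. They describe 5 or 6 arrays that share slides and normalization. CXCL11 was followed by PPP2R1B (r = 0.996), ARPC5 (0.992) and FEM1B (0.992) over 6 arrays, and 116 probes exceeded 0.95. The CXCL10 probe outside the rectangle was followed by BRAF, ZSCAN30 and IFT20 (r = 0.983 to 0.990), and CXCL16 by DCAF10, ZBTB8A and CARD19 (0.979 to 0.985). Over 5 arrays, CCL5 was followed by HIP1R, MAOB and PCED1A, CXCL9 by RTF1, FDPS and SLC25A3, and A_24_P303091 by PTPRR, PIP4P1 and RASSF5. At 5 arrays, 283 to 624 probes exceeded 0.95 for each chemokine probe.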

How the data were processed

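RNA from AGS cells was labelled with Alexa555 and hybridized to 1-colour Agilent arrays, 3 per group. The authors deposited scanner files of Agilent Feature Extraction version 10.5.1.1, per the labels, which give the fluorescence intensity of each spot after the software's background correction, without normalization between arrays. The deposited series table held the same background-subtracted intensity.

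Log2 processed signals without control spots and outlier spots (100 to 424 per array) were quantile normalized, averaged per probe and fitted with limma version 3.58.1 in R version 4.3.3. The dim rectangle of si-control replicate 2 was masked. Probes were named through RefSeq accessions of GRCh38.p14. The array files name another build, so the only coordinates given are those of the RefSeq promoters, in GRCh38.p14. A gene with several probes was read, in lists, from the probe with the highest mean signal. Members and lists were chosen with earlier results of these data known. Named genes were all members, C1GALT1, each list gene past p under 0.01 and 2-fold, the largest rise and fall of each list, and the 3 genes most correlated with each member; others were chosen after their values were seen. Some genes that this rule names are not reported here.

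Replicate numbers mark shared slides, per the file headers, and deviations from the group means correlated at 0.198, 0.215 and 0.329 for replicates 1, 2 and 3. The slide as a block was therefore run as an alternative. The others were 75th percentile or no normalization, the rectangle kept, dim probes left out, and a trend and robust prior. Student's t-test, outlier spots kept, normexp, the series table, any probe of a gene, and each array left out were also run. The block with the rectangle kept was added after seeing the data. Tests were checked on simulated data. The number of arrays limits the precision.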

Additional observations from a re-analysis of the deposited data

How the results depend on the processing

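With the replicate as a block (arrays paired by slide), 1604 probes passed, 0 members and 23 list genes, against 1538, 0 and 26. No member call changed with the block. Student's t-test gave 896 probes and normexp 915, and leaving out each array gave 1126 to 1781. With 1 probe per gene, members past the threshold were 0 to 1 when arrays were left out. Without si-control replicate 3, CXCL9 passed, and so did A_24_P303091, the CXCL10 probe not used in that count. List genes were 15 with the block and the rectangle kept and 21 to 30 when arrays were left out. CXCL16 turned to 0.0742 without normalization and 0.0196 after normexp. With each array left out it ran from -0.194 to 0.0825, CXCL11 from -0.0159 to 0.439, CXCL9 from -0.43 to 1.11, CXCL10 from 0.27 to 1.79 (A_24_P303091) and 0.0984 to 0.705 (A_33_P3343175), and CCL5 from 0.688 to 1.48. The 75th percentile shifted the median of all probes to -0.11. Higher calls were 62.5% of all calls, 72.6% without normalization, 40.2% with the rectangle kept and 54.1% with the 75th percentile. A lone control array is assumed to vary like the other arrays. CXCL9 was close to background on 1 of its 2 control arrays, which limits its difference.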
